A study of Homo sapiens with 24 samples.

Results

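The 9 Hippo pathway genes YAP1, WWTR1, LATS1, LATS2, TEAD1, AMOTL2, NF2, VGLL4 and SAV1 were examined for N6-methyladenosine (m6A), the methyl mark that METTL3 and METTL14 write into mRNA. They were named from the pathway, and every m6A summit whose position fell inside the RefSeq span of one of them was taken. All 9 held at least 1 summit, as did 10287 of all 20056 protein-coding genes with a RefSeq span. Together the 9 genes held 255 of 155075 summits. The libraries came from HepG2, a cell line grown from a human liver cancer, made into 4 stable lines, each transduced with a lentivirus and selected with puromycin for 8 days. Their cassettes carried METTL14 (R298P), METTL14 (D312A), METTL14 (WT) or, as the control, EGFP. Each line gave 3 biological replicates of immunoprecipitated (IP) RNA, so 12 summit lists were used, and the labels give no deletion of the cells' own METTL14 in any line.

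The Hippo pathway is a kinase cascade that restrains organ growth, in the liver among other tissues. MST kinases with their scaffold SAV1 activate the LATS kinases, and these phosphorylate the coactivators YAP1 and TAZ (the product of WWTR1), which are then held in the cytoplasm or degraded. In the nucleus YAP1 and TAZ act through TEAD transcription factors, and LATS2 and AMOTL2 are among the genes that they are known to switch on.

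The lists held between 8669 and 15373 summits, and the number of reads behind them is unknown. A summit is the highest point of a peak in one library. RNA had been cut to about 120 nt, so a summit marks a neighbourhood and not a methylated base. Summit numbers rest on the amount of a transcript as well as on its methylation, and these cannot be told apart here. All 9 hepatocyte markers examined held summits in at least 1 library. TTR held 1 in all, and ALB, APOB and AFP each held 0 in D312A replicate 3 and in EGFP replicate 2. The sum over the 9 markers differed widely between libraries of the same line, with 17 to 70 in R298P, 8 to 78 in D312A, 35 to 98 in WT and 14 to 82 in EGFP. Of other cell types, 2 of 7 fibroblast and stellate cell markers (COL1A1, COL1A2, COL3A1, DCN and LUM at 0), 3 of 5 blood and macrophage markers (PTPRC and CSF1R at 0) and 2 of 4 endothelial markers (VWF and KDR at 0) held summits. Those with summits, over all libraries, were ACTA2 (17) and PDGFRB (6), LYZ (19), CD14 (13) and CD68 (2), and CDH5 (2) and PECAM1 (1). The summed numbers per library ran from 1 to 3, 0 to 2, 2 to 4 and 1 to 3 for the fibroblast markers of R298P, D312A, WT and EGFP, from 2 to 3, 2 to 4, 2 to 6 and 2 to 3 for the blood markers, and from 0 to 1, 0 to 1, 0 to 0 and 0 to 0 for the endothelial markers. The part of these in the results below was not tested.

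Start-site windows were used for 8 of the 9 genes, TEAD1 being the one without. Short stretches are shown first for the 3 of these 8 that held a summit within the first 50 transcribed bases of a RefSeq start site, the only parts of these genes for which a sequence was used here. They show where on the message such start-proximal summits lay, and hold bases 21 to 50 counted from the start site, 5′ to 3′ on the transcribed strand (RefSeq, GRCh38.p14). Capitals mark the base under a summit.
YAP1 (chr11:102110467-102110496, plus strand): gccagggaaaagaaagGgaggaaggaagga
LATS1 (chr6:149718052-149718081, minus strand): acactgagtggaaggcaaaatggCggcGgc
VGLL4 (chr3:11720490-11720519, minus strand): tggagtgcaaCatgctgtaatgggaggaaa
The YAP1 summit, at base 37, came from R298P replicate 2. Those of LATS1 came from R298P replicate 1, at base 48, and from EGFP replicate 2, at base 44, and they also lay in the span of a lncRNA gene, LOC645967. The VGLL4 summit, at base 31, came from D312A replicate 3. Each was thus seen in 1 or 2 of the 12 libraries. Of all 34935 promoter windows, which run from 250 bases before a start site to 50 after it, 5.06% held a summit. The 8 genes have 16 such windows, and 3 of these held a summit within the 50 transcribed bases. These shares are not alike, since the 5.06% counts all 300 bases and also genes without any summit. The share of all windows with a summit in the 50 transcribed bases was not counted. GGAC, a frequent form of the m6A consensus, was in none of the 3 stretches on either strand over their first 50 bases, and in 18.9% of the windows of all genes on the transcribed strand (33.5% counting both strands).

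The kinases and a junction adaptor carried most of the marks. LATS1 and LATS2, which phosphorylate YAP1 and TAZ, and AMOTL2, an angiomotin that binds YAP1 at cell junctions, held 189 of the 255 summits (74.1%). Over the 12 libraries LATS1 held 6.33 ± 1.23 summits, LATS2 5.17 ± 0.835 and AMOTL2 4.25 ± 1.29 (SD, n = 12 libraries of all lines). TEAD1, a DNA-binding partner of the coactivators, followed with 2.42 ± 1.62, then YAP1 with 1.75 ± 0.866 and NF2, an upstream tumour suppressor of the pathway, with 0.75 ± 0.622. WWTR1 held 0.333 ± 0.492, VGLL4, which competes with YAP1 for TEAD factors, 0.167 ± 0.389, and SAV1 0.0833 ± 0.289. The ranges of all neighbours in this order overlapped. LATS1 still exceeded LATS2 in 10 libraries and equalled it in 2, and YAP1 exceeded NF2 in 8 and equalled it in 4, whereas AMOTL2 was below TEAD1 in 3. These are numbers of summits and not levels per length, since exon lengths were not used.

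**Figure D1:**
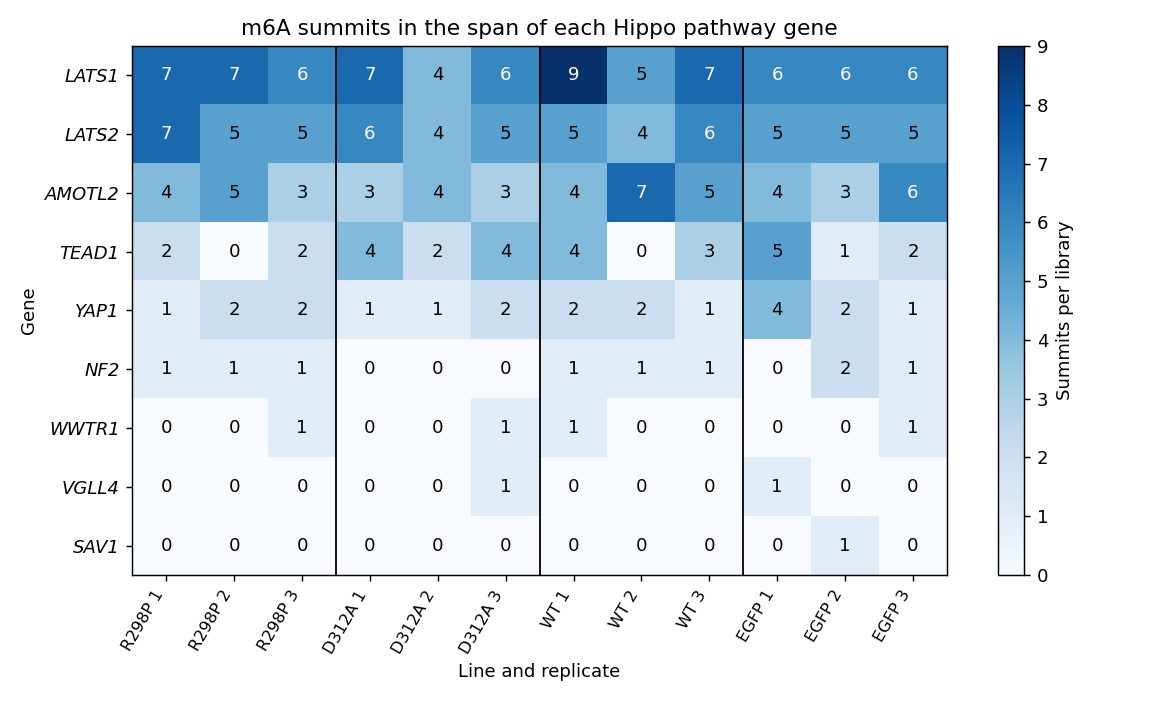
Number of m6A summits (colour and printed figure) in the span of each of the 9 genes (rows, ordered by total) in each of the 12 IP libraries (columns, by line and replicate). LATS1 has 4 to 9 summits in every library and LATS2 4 to 7, while SAV1 has 1 in a single EGFP library and NF2 has 0 in all 3 D312A libraries.

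Set against all genes with a summit, LATS1 with 76 summits ranked 86th of 10287 and LATS2 with 62 ranked 198th. AMOTL2 with 51 exceeded 96.2% of these genes, TEAD1 with 29 ranked 1438th and YAP1 with 21 exceeded 74.8%. NF2 with 9 exceeded 45.2%, WWTR1 with 4 exceeded 28.7%, VGLL4 with 2 exceeded 15.7%, and SAV1 with 1 was among the lowest, where the median gene held 10. So the pathway spanned nearly the whole range of summit numbers, from 2 kinases near the top to their scaffold at the bottom.

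Summits within 100 nt of a neighbour were merged into regions, counted over all 12 lists. The 9 genes held 44 regions. Every library shared 8 of these (18.2%), and 10 (22.7%) were seen once. Among 29190 regions in protein-coding genes these shares were 11.1% and 31.7%. All 8 regions present in every library belonged to LATS2, LATS1 and AMOTL2.

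LATS2 (chromosome 13, 20973036 to 21061586) had 4 regions present in every library, the most of the 9 genes. Its summits numbered 7, 5 and 5 in R298P, 6, 4 and 5 in D312A, 5, 4 and 6 in WT and 5, 5 and 5 in EGFP, so all lines overlapped. These 4, of 9 regions in all, began at 20974673 and 20975035, 1.65 and 2.06 kb from the 3′ end of the span, at 20983448, and at 21045988, 15.6 kb from the 5′ end. The first and the last stood high within their lists, with a median value at percentiles 89.7 and 84.1. A further region at 20988665 to 20988695 was present in 3 R298P, 1 D312A, 1 WT and 2 EGFP libraries. Its neighbour 115 nt lower, at 20988548 to 20988550, was in 0 R298P, 1 D312A, 1 WT and 1 EGFP libraries.

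LATS1 (chromosome 6, 149658153 to 149718101) held 7, 7 and 6 summits in R298P, 7, 4 and 6 in D312A, 9, 5 and 7 in WT and 6, 6 and 6 in EGFP. No line stood apart from the others. The lowest number belonged to D312A replicate 2, which also had the shortest list, of 8669 summits. LATS1 had 11 regions, the most of the 9 genes, and 6 of them lay between 149679903 and 149683813. There, regions at 149680065 to 149680122 and 149683789 to 149683813 were present in all 12 libraries, and that at 149683430 to 149683560 in 11. Close to the 3′ end of the span, a region at 149661924 to 149661943 was present in 3 R298P, 1 D312A, 3 WT and 2 EGFP libraries. One at 149702061 to 149702072, 16.0 kb from the 5′ end, was present in 1 R298P, 3 D312A, 2 WT and 3 EGFP libraries.

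The region of LATS1 at 149684009 to 149684012 followed the lines more closely. It was present in all 3 R298P and 2 D312A libraries, against 1 WT and 0 EGFP libraries, with summits that fell within 4 nt of each other. It lay 196 nt from the region at 149683789 that every library held. With summits merged within 200 nt the pair became 1 region, and the difference between R298P and EGFP was no longer called.

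SAV1 (chromosome 14, 50633580 to 50668306), the scaffold that joins MST and LATS kinases, held its only summit at 50662989 in EGFP replicate 2. This summit stood at percentile 27.8 of its list.

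**Figure D2:**
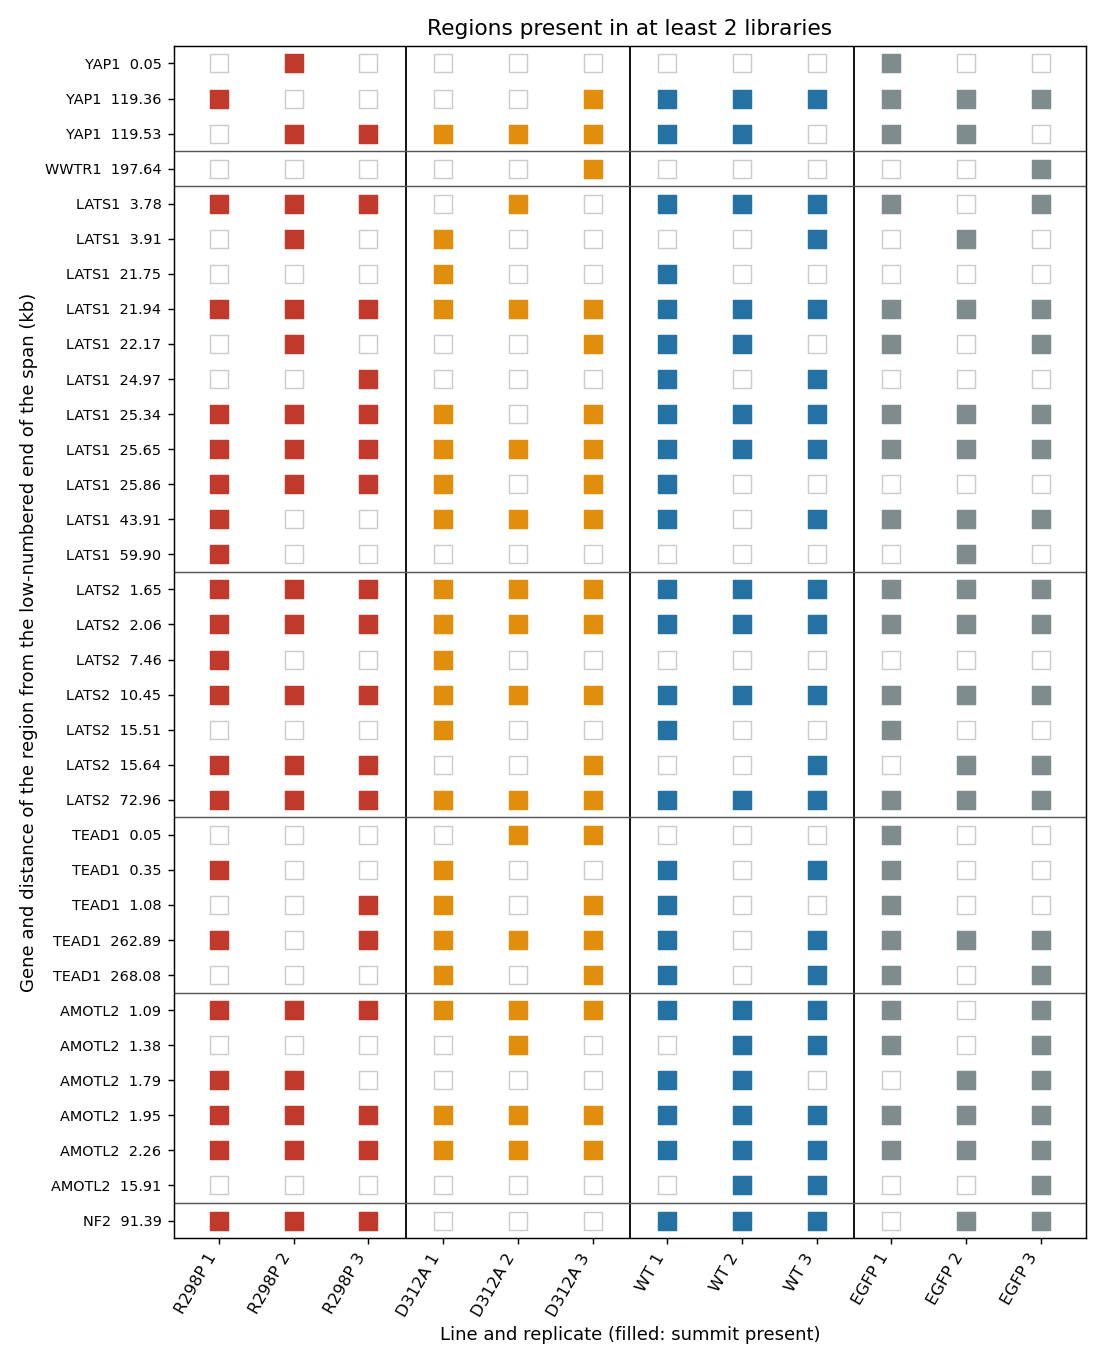
Presence of each region seen in at least 2 libraries (rows, labelled with the gene and the distance in kb from the low-numbered end of its span) in the 12 IP libraries (columns; filled squares hold a summit, colours mark the lines). The 4 LATS2, 2 LATS1 and 2 AMOTL2 regions filled throughout contrast with the NF2 region, which is empty in the 3 D312A libraries.

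NF2 (chromosome 22, 29603556 to 29698600) encodes merlin, which recruits LATS kinases to the membrane. It held 1 summit in each R298P library, 0 in each D312A library, 1 in each WT library and 0, 2 and 1 in the EGFP libraries. D312A was thus the only line without a summit in any library. All but 1 of the 9 summits fell in a region at 29694924 to 29694977, 3.65 kb from the 3′ end of the span, which was present in 3 R298P, 0 D312A, 3 WT and 2 EGFP libraries. The line mean of D312A was 1.0 below that of the other 9 libraries (0 ± 0 against 1.0 ± 0.5, SD, n = 3 and 9), with an unadjusted p of 0.0182 (exact permutation test, two-sided). After adjustment over 10287 genes it was 1.0, and 1.98% of all genes had an unadjusted p under 0.05 in that comparison.

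The summits of the NF2 region at 29694924 were uneven in strength. They stood at percentiles 1.16 to 4.71 in R298P replicate 3, WT replicates 2 and 3 and EGFP replicate 3. In R298P replicates 1 and 2, WT replicate 1 and EGFP replicate 2 they stood at 32.6 to 45.0. Their median, at percentile 18.7 of the lists, fell between these groups. It was 40.1 for the 342 regions lost in D312A against WT and 33.8 for all 34313 regions. When only the 8669 highest summits of each list were counted, NF2 kept a summit in 2 R298P, 0 D312A, 0 WT and 0 EGFP libraries, and with summit values of at least 10 in 2, 0, 1 and 1. The exact p of D312A against the other 9 libraries was 1.0 and 0.382 under these settings, and NF2 was not called in either. With the 8669 highest summits it was R298P that differed from the other 9 libraries before adjustment (0.667 against 0 summits, exact permutation test, p = 0.0455, adjusted p = 1.0). That rests on 1 summit in each of 2 libraries, which can give no smaller p. The share of all genes with an unadjusted p under 0.05 was not counted at this setting.

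AMOTL2 (chromosome 3, 134355345 to 134375417) held 4, 5 and 3 summits in R298P, 3, 4 and 3 in D312A, 4, 7 and 5 in WT and 4, 3 and 6 in EGFP. D312A reached 4 at most, the lowest WT number, and the difference of D312A minus WT was -2.0 summits (3.33 ± 0.577 against 5.33 ± 1.53, SD, n = 3 each; exact permutation test, p = 0.2, where 20 assignments allow no p under 0.1; adjusted p = 1.0). Of its 6 regions, 5 lay within 2.26 kb of the 3′ end of the span. Those at 134357286 to 134357311 and 134357505 to 134357699 were present in all 12 libraries, and that at 134356408 to 134356453 in 11. The other 3 differed more. A region at 134356716 to 134356741 was present in 0 R298P, 1 D312A, 2 WT and 2 EGFP libraries. One at 134357109 to 134357166 was present in 2 R298P, 0 D312A, 2 WT and 2 EGFP libraries. The region at 134371205 to 134371306, nearer the 5′ end, was present in 0 R298P, 0 D312A, 2 WT and 1 EGFP libraries, and its highest summit value, a −log10 p or q, was 11.3.

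YAP1 (chromosome 11, 102110447 to 102233424), the main effector of the pathway, held 1, 2 and 2 summits in R298P, 1, 1 and 2 in D312A, 2, 2 and 1 in WT and 4, 2 and 1 in EGFP. Every library held at least 1, and the lines overlapped. Its summits clustered 3.45 to 3.62 kb from the 3′ end of the span, in a pair of regions 133 nt apart. The lower-numbered one, at 102229795 to 102229820, was present in 1 R298P and 1 D312A library against 3 WT and 3 EGFP libraries. The other, at 102229953 to 102229990, was present in 2 R298P, 3 D312A, 2 WT and 2 EGFP libraries. Both regions together were held by 0 R298P, 1 D312A, 2 WT and 2 EGFP libraries. Neither region was called gained or lost in any comparison of lines, and merging within 200 nt makes the pair 1 region. How often pairs of regions in other genes show such a pattern was not counted. These YAP1 summits ranked low, with median percentiles of 25.9 and 17.4.

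**Figure D3:**
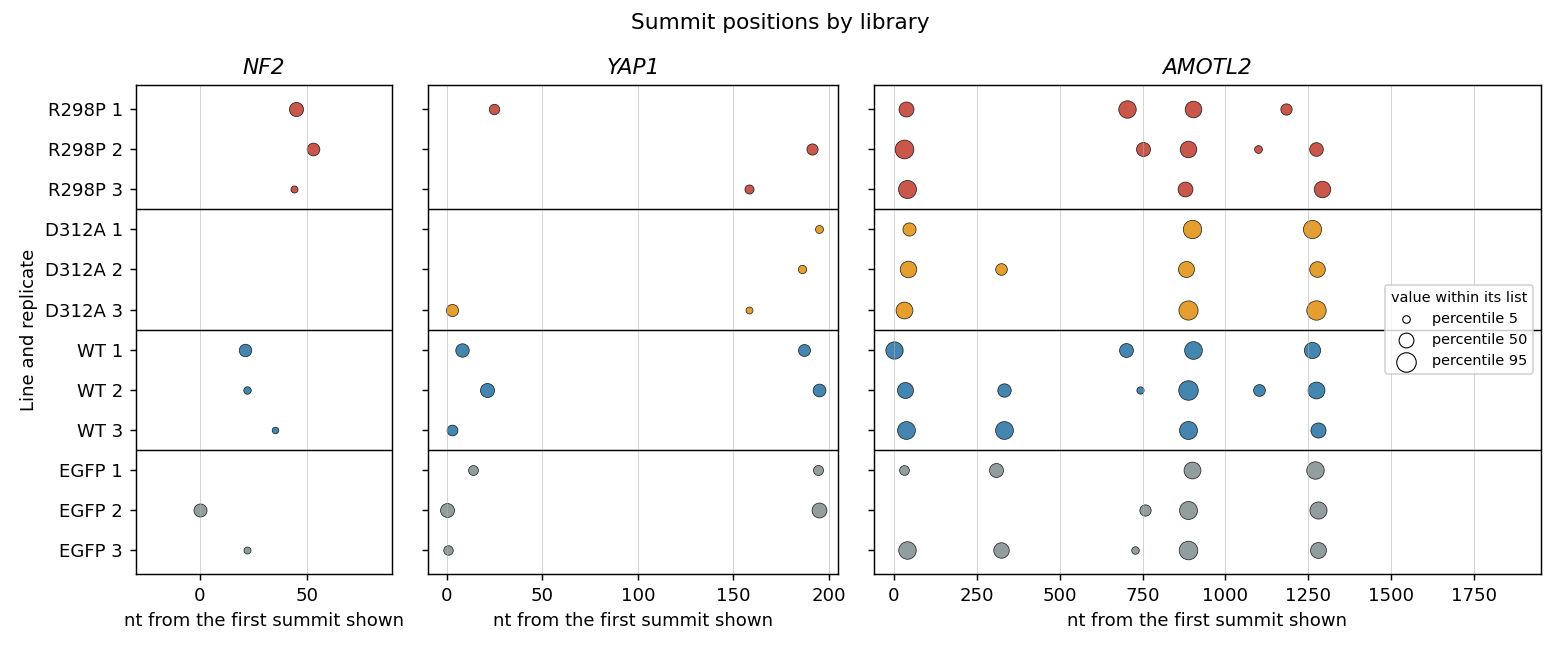
Position of each summit in the main regions of NF2, YAP1 and AMOTL2, in nt from the lowest-numbered summit shown (x axis), by library (rows), with larger circles for values at a higher percentile of the library's own list. NF2 shows no circle in D312A, and R298P and D312A libraries mostly hold 1 of the 2 YAP1 regions, neither of which was called in a comparison of lines.

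WWTR1 (chromosome 3, 149517235 to 149724788), which encodes the YAP1 relative TAZ, held 4 summits in 3 regions, in R298P replicate 3, D312A replicate 3, WT replicate 1 and EGFP replicate 3. Only the region at 149714874 to 149714878 was seen more than once, in D312A replicate 3 and EGFP replicate 3.

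TEAD1 (chromosome 11, 12674421 to 12944737) had the largest spread of the 9 genes across the 12 libraries. It held 2, 0 and 2 summits in R298P, 4, 2 and 4 in D312A, 4, 0 and 3 in WT and 5, 1 and 2 in EGFP. Its strongest region, at 12937311 to 12937321, was present in 2 R298P, 3 D312A, 2 WT and 3 EGFP libraries, with all 10 summits within 11 nt. A region near the high-numbered end, at 12942456 to 12942553, was present in 0 R298P libraries and in 2 of each other line. The other 3 lay within 1.08 kb of the low-numbered end and were present in 3 to 5 libraries each. The mean of R298P minus that of D312A was -2.0 (1.33 ± 1.15 against 3.33 ± 1.15, SD, n = 3 each; exact permutation test, p = 0.3, adjusted p = 1.0).

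VGLL4 (chromosome 3, 11556067 to 11721815) held 1 summit in D312A replicate 3, shown above, and 1 in EGFP replicate 1 at 11558116, where the span of ATG7 overlaps.

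The comparisons of lines asked which sites a substitution in METTL14, or added METTL14, changes. A region was called gained in a line when present in 3 of 3 of its libraries and 0 of 3 of the other line, and lost in the opposite case. In R298P against WT, 0 of 7 of these genes with a region and 0 of their 37 regions were called, where 6.51% of all genes with a region and 2.43% of all regions were. In R298P against EGFP the LATS1 region at 149684009 was gained, which made 1 of 9 genes and 1 of 40 regions, beside 6.43% of all genes and 2.35% of all regions. In D312A against WT the NF2 region was lost, 1 of 8 genes and 1 of 35 regions, beside 3.87% and 1.44%. In D312A against EGFP 0 of 9 genes and 0 of 38 regions were called, beside 3.69% and 1.34%. In R298P against D312A the NF2 region was gained, 1 of 8 genes and 1 of 37 regions, beside 4.62% and 1.84%. In WT against EGFP 0 of 9 genes and 0 of 39 regions were called, beside 1.82% and 0.664%. Comparisons that share a line share its libraries. With so few regions, 0 or 1 called is near these shares in each of the 6 comparisons.

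Over the 9 genes the libraries held 20.7 ± 1.15 summits in R298P, 19.3 ± 3.79 in D312A, 22.7 ± 3.51 in WT and 22.3 ± 2.52 in EGFP (SD, n = 3 each). The differences were -2.0 for R298P minus WT, -1.67 for R298P minus EGFP, -3.33 for D312A minus WT, -3.0 for D312A minus EGFP, 1.33 for R298P minus D312A and 0.333 for WT minus EGFP. Each was smaller than the pooled spread between replicates of the 2 lines, which ran from 1.96 to 3.65. The lists of R298P and D312A were shorter on average, at 12424 ± 1139 and 11125 ± 2127 summits, against 14177 ± 1358 in WT and 13966 ± 1357 in EGFP. Per 10000 summits of a list, a scaling added after the data were examined, the genes took 16.7 ± 1.96 in R298P, 17.4 ± 0.414 in D312A, 15.9 ± 1.41 in WT and 16.0 ± 1.48 in EGFP. In these shares both substitution lines were above WT and EGFP, the opposite order, by less than 2 of 10000 summits. Counting only the 8669 highest summits of each list, R298P minus WT was 1.0 and D312A minus WT 2.67.

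**Figure D4:**
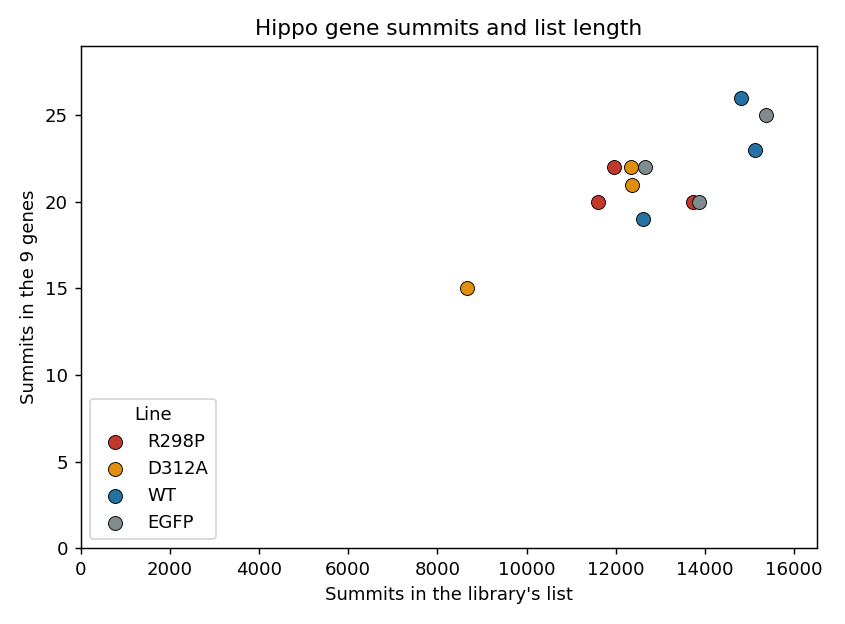
Summits in the 9 genes (y axis) against all summits of the library's list (x axis), 1 point for each of the 12 IP libraries, coloured by line. D312A replicate 2 has the shortest list and the fewest summits in these genes (8669 and 15), and the longest list, EGFP replicate 1, has 25.

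None of the 9 genes passed in summit number after adjustment over all genes tested, in any of the 6 comparisons of lines or in any line against the other 9 libraries (exact permutation tests, adjusted p = 1.0 for each). With 3 libraries against 3 the smallest p is 0.1, so no gene could have passed there, and with 3 against 9 it is 0.00455 before adjustment over 10287 genes. Before adjustment NF2 in D312A against the other 9 libraries was the only one under 0.05. Among the other tests of 1 line against the other 9 libraries the lowest p was that of AMOTL2 in WT, 1.44 summits higher (exact permutation test, p = 0.109). Between 2 lines the values of NF2 did not overlap in D312A against WT and in R298P against D312A, and those of every other gene overlapped in all 6 comparisons. Among all genes, 3.53% and 2.71% did not overlap in these 2 comparisons.

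Where a region was present in all libraries of 2 lines, the place of its summits could be compared as well. In NF2 the R298P summits lay at 29694969, 29694977 and 29694968, all above the WT summits at 29694945, 29694946 and 29694959, a mean shift of 21.3 nt (SD 4.93 in R298P and 7.81 in WT, n = 3). The EGFP summits at 29694924 and 29694946 also lay below those of R298P. Several of these summits were near the lowest values of their lists. R298P replicates 1 to 3 had 11.9, 11.2 and 5.94, and WT replicates 1 to 3 had 10.9, 6.82 and 5.42. Over all regions compared in R298P and WT the median absolute difference was 6 nt. Over the 3401 regions present in all 12 libraries the median range of positions was 32 nt. In the LATS2 region at 20983448 the R298P summits, at 20983455, 20983528 and 20983471, lay above the WT summits, at 20983452, 20983448 and 20983451, but R298P replicate 2 alone set most of the mean shift of 34.3 nt (SD 38.4 and 2.08). The WT summits there were also lower than those of EGFP, at 20983472, 20983475 and 20983472, by 22.7 nt. D312A, with 20983452, 20983471 and 20983457, lay below EGFP by 13.0 nt. In the LATS2 region at 21045988 D312A was 7.33 nt below EGFP, without overlap.

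In all, positions did not overlap in 2 of 12 regions of the 9 genes in R298P against WT (9.46% of all such regions), 0 of 9 in R298P against EGFP (10.0%), 0 of 9 in D312A against WT (5.69%), 2 of 10 in D312A against EGFP (5.72%), 0 of 9 in R298P against D312A (8.35%) and 1 of 10 in WT against EGFP (5.09%). Among the 3401 regions present in all 12 libraries, 0 passed adjustment for a shift of 1 line against the other 9 libraries (exact permutation tests with Benjamini-Hochberg adjustment, lowest adjusted p = 0.329, in R298P). Unadjusted, 247 of them were under 0.05 in R298P, 104 in D312A, 70 in WT and 93 in EGFP. Of the 8 such regions in these genes 1 was among them, LATS1 at 149680065 to 149680122, where WT minus the other 9 libraries was -28.2 nt (exact permutation test, p = 0.0227, adjusted p = 1.0). Both analyses of position were chosen after the data were examined.

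Other genes of the pathway were followed through lists of named groups, without the 9 genes above. Of 89 such genes 69 held a summit, beside 10287 of all 20056 protein-coding genes. In R298P against WT 3 of 65 with a region had a lost one and 0 a gained one, beside 6.51% of all genes with either. FAT4, an atypical cadherin, lost a region on chromosome 4 at 125318201 to 125318219, present in 0 R298P, 0 D312A, 3 WT and 1 EGFP libraries. CTTNBP2NL, a member of the STRIPAK phosphatase complex, lost one on chromosome 1 at 112457300 to 112457331, likewise present in 0, 0, 3 and 1. ARHGEF17, from the list of YAP1 and TAZ targets, lost one on chromosome 11 at 73308742 to 73308786, present in 0 R298P, 1 D312A, 3 WT and 2 EGFP libraries. The same 3 genes, of 61 with a region, had a lost one in D312A against WT, beside 3.87% of all genes gained or lost. In ARHGEF17 it was a different one, at 73309325 to 73309358, present in 3 R298P, 0 D312A, 3 WT and 2 EGFP libraries, the pattern that NF2 showed.

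Called genes numbered 3 of 66 in R298P against EGFP (6.43% of all genes), 0 of 62 in D312A against EGFP (3.69%), 3 of 59 in R298P against D312A (4.62%) and 3 of 66 in WT against EGFP (1.82%). Among the other kinases and adaptors, 11 of 15 listed genes held summits, and MAP4K4, an upstream kinase, held 34 in all, STK38 23, TAOK2 21 and STK4, which encodes MST1, 20. Upstream regulators held summits in 21 of 26, led by the cadherin FAT1 with 173, between 7 and 18 in each library, and by DLG5 with 51 and AJUBA with 30. In the STRIPAK list 10 of 12 held summits, with STRN3 at 22, and SLMAP, which held 14, in every library. In the list of TEAD factors, coactivators and cofactors 3 of 6 held summits, where TEAD4 had 14, TEAD3 3 and TEAD2 2 beside the 29 of TEAD1. YAP1 and TAZ targets held summits in 16 of 20, with ARHGEF17 at 111, DOCK5 at 38, and NUAK2 and CRIM1 at 26 each. In the list of 14-3-3 proteins and coactivator degradation 9 of 11 held summits, among them CSNK1D with 60, CSNK1E with 32, YWHAH with 20 and YWHAE with 16.

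Across the 12 libraries, the summit numbers of VPS54, BIN3 and ITPRIPL1 were most like those of LATS1 among 2104 genes with at least 24 summits (Pearson r = 0.866, 0.866 and 0.848, n = 12 libraries, which share line and list length). LATS1 and VPS54 both had their highest number in WT replicate 1 (9 and 4 summits) and their lowest in D312A replicate 2 (4 and 2). BIN3 held 3 and 1 in these libraries. In every other library VPS54 held 3 and BIN3 held 2, so both r of 0.866 rest on WT replicate 1 and D312A replicate 2 alone.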

How the data were processed

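IP RNA of 12 libraries was analysed. The authors deposited 1 summit list per library, and libraries were not pooled. Per the submitters' processing notes the tools include STAR 2.7.9a, MACS2 2.1.2, HOMER 4.9 and bedtools 2.17.0, with build hg38; settings were not given. The deposited value of each summit was taken for a −log10 p-value or q-value, judged by its range (lowest value 5.0 to 5.03 per list). It is the authors' own and was used only within a list. Depth is unknown, so no counting interval was set. The table of input RNA was not used: its Ensembl identifiers could not be paired with symbols here, and 18 of its columns are headed by codes absent from the labels. The planned count of genes called in it was therefore not made.

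Summit positions are 1-based. Each was counted in every protein-coding RefSeq span (GRCh38.p14) that holds it; exons and strand were not used, and TEAD1 has no strand in the tables used. Distances to the 5′ and 3′ ends refer to the span. Summits of all lists within 100 nt formed regions. Exact permutation tests (two-sided) used 20 assignments of 3 and 3 libraries or 220 choices of 3 of 12, per gene, with Benjamini-Hochberg adjustment over all genes with a summit (Python 3.11.15, numpy 2.4.6, pandas 2.3.3). The functions were tested on simulated data. The labels call the replicates biological.

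The 9 genes and the gene lists were chosen with earlier results of these data known. All 9 are named. From each pathway list up to 4 other genes are named: those with a gained or lost region in R298P against WT, then those with most summits (1 gene chosen by this rule is not reported here).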

Additional observations from a re-analysis of the deposited data

How the results depend on the processing

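When only the 8669 highest summits of each list were counted, the sums over the 9 genes moved by more than the replicate spread or turned: R298P minus WT was 1.0, D312A minus WT 2.67, D312A minus EGFP 1.67 and R298P minus D312A -1.67. R298P minus EGFP was 0 and WT minus EGFP turned to -1.0, within the replicate spread. With values of at least 10, R298P minus WT was -1.0, R298P minus EGFP -0.667, D312A minus WT -0.333, D312A minus EGFP 0, R298P minus D312A -0.667 and WT minus EGFP 0.333. Leaving out 1 library at a time gave -3.83 to -0.333 for R298P minus WT, -2.83 to -0.333 for R298P minus EGFP, -5.17 to -1.17 for D312A minus WT, -4.33 to -0.833 for D312A minus EGFP, -0.833 to 2.67 for R298P minus D312A and -1.33 to 2.167 for WT minus EGFP. Genes with a gained or lost region numbered 1 in R298P against WT (LATS2 gained) both with the 8669 highest summits and with values of at least 10. They numbered 0 under both settings in R298P against EGFP, D312A against WT and R298P against D312A, and 0 in R298P against EGFP with merging within 200 nt. The cause was not tested. The replicate 1 lists carry another style of code than the rest. In replicates 2 and 3 alone, where 2 of 2 against 0 of 2 is a weaker demand, they numbered 3 in R298P against WT (AMOTL2 and YAP1 lost, LATS1 gained), 2 in R298P against EGFP, and 3 each in D312A against WT, D312A against EGFP and R298P against D312A. Leaving out 1 library, which also weakens the demand, gave 0 to 2 in R298P against WT, 1 to 3 in R298P against EGFP, 2 in each case in D312A against WT, 0 to 2 in D312A against EGFP, 1 to 3 in R298P against D312A and 0 to 1 in WT against EGFP. The share of all genes called was not counted for any of these altered settings. Whether such numbers are ordinary among all genes can therefore not be told. NF2 stayed called in D312A against WT without each of the 6 libraries. For a region in 3 of 3 against 0 of 3 libraries the rule fixes this in advance, so it tests nothing. Libraries of different lines were also compared in pairs over 10287 genes. Pairs with the same replicate number had r from -0.32 to 0.481, with a median of 0.202. These r do not measure how alike whole summit numbers were, since LATS1, for example, exceeded SAV1 in every library. Pairs within a line were not included. Of these 18 pairs 11 were over 0.1, and those among replicate 1 libraries ran from 0.0973 to 0.481. Pairs of different numbers had a median of -0.108, with 12 of 36 over 0.1. Libraries of the same number were thus more alike on the median, but not throughout. Only 6 of 12 libraries correlated best with their own number, and the numbers were not taken as pairs. With the replicate block the sum for R298P minus WT was -2.0; in this balanced design a block cannot move a difference of means, so this tests nothing. Under the block 0 of the 9 genes passed adjustment, and NF2 in D312A against the other 9 libraries had an unadjusted exact p of 0.0312 over 64 choices. The unknown read depth limits what the absence of a summit shows.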
